A study of Mus musculus with 6 samples.

Results

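The genes of the translation initiation factors were examined in mouse epidermis collected 2 h after punch wounding. They were chosen by symbol, as every gene whose name begins with Eif and a digit from 1 to 6, without the Eif2ak kinase genes. This gave 59 of the 47455 genes in the deposited tables, of which 52 had enough counts to be tested. The libraries came from 3 C57BL/6 mice aged 6 to 8 weeks, all without a named transgene. Each mouse gave 1 library of non-wounded epidermis and 1 of epidermis from skin wounded by 8 punches of 3 mm, so that each group held 3 libraries. Epidermis was freed from dermis in trypsin, and RNA was captured by its poly(A) tail from the whole tissue, so that the cells holding a transcript are not identified.

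Initiation brings a ribosome to the start codon of an mRNA. The factor eIF2 carries the initiator tRNA in its GTP-bound form and is recharged by the exchange factor eIF2B, eIF3 holds the small ribosomal subunit, and eIF4F binds the mRNA cap and unwinds the leader. eIF1 and eIF1A accompany the subunit while it scans, eIF5 triggers GTP hydrolysis by eIF2 at the start codon, and eIF5B joins the large subunit. The 4E-BP proteins hold the cap-binding subunit eIF4E away from its scaffold until mTORC1 phosphorylates them, and in skin, protein synthesis is known to be low in resting hair follicle stem cells and higher in their dividing progeny.

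Levels are given as CPM, the count of a gene relative to its library's size after TMM scaling, which assumes that most genes do not change. Each log2 fold change sets wounded against non-wounded and comes with a standard error (SE), and a gene was called at an adjusted p under 0.05 in edgeR's quasi-likelihood test. Library totals ran from 20746185 to 26814845 counts. TMM factors were 1.12 in each non-wounded library and 0.89 to 0.90 in the wounded libraries. Red blood cell, fibroblast, skeletal muscle and neutrophil markers were higher in the wounded libraries. The 6 fibroblast markers summed to 2.67 to 7.36 CPM without and 29.7 to 65.4 CPM with wounding, and 5 of 5 tested were called higher. The 5 red blood cell markers summed to 18.9 to 26.1 CPM without and 97.3 to 165 CPM with wounding, with 5 of 5 called higher. The 6 muscle markers summed to 3.54 to 3.98 CPM without and 10.8 to 14 CPM with wounding, with 4 of 5 called higher, and the 5 neutrophil markers to 2.16 to 4.49 CPM without and 9.85 to 14.2 CPM with wounding, with 4 of 4 called higher and Ly6g at 0 counts in every library. The 3 endothelial markers summed to 1.30 to 2.20 CPM without and 1.85 to 2.37 CPM with wounding, and the 3 melanocyte markers to 0.607 to 2.21 CPM without and 1.97 to 3.23 CPM with wounding. The 5 keratinocyte markers summed to 22103 to 28381 CPM without and 22256 to 26037 CPM with wounding, with 1 called higher and 1 lower. Of 4 Langerhans cell markers 2 were called higher, with sums of 1032 to 1139 CPM without and 1695 to 2002 CPM with wounding. Of 4 markers of the dendritic epidermal T cells, 3 were called lower, with sums of 108 to 139 CPM without and 87.0 to 101 CPM with wounding. The part of these cells in the values below was not tested, and fewer cells of a type cannot be told apart from less RNA per cell.

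Under TMM scaling, initiation factor transcripts moved mostly upward relative to other genes. Of the 52 tested genes 27 rose, 1 fell and 24 did not pass, so that 51.9% were higher and 1.92% lower. Among all 16079 genes tested 48.4% were called, with 24.0% higher and 24.4% lower. The median log2 fold change was 0.32 over the initiation factors and -0.03 over all genes. Most initiation factors are abundant, and abundant genes rose more often. Of 37 members with a mean of at least 50 CPM, 26 were called higher, 70.3%, against 49.5% of the 4003 genes at that level. The mean was taken over all 6 libraries, so a gene could reach the level through its rise with wounding. Eif1ad (47.7 CPM without and 84.4 CPM with wounding) and Eif4e2 (47.0 and 68.7 CPM) did so. None of the 37 members was called lower by edgeR, by DESeq2 or at an unadjusted p under 0.05. Among all genes at that level edgeR called 13.7% lower. With unscaled library totals 3 of the 37 were called lower and on log2(TPM + 1) 2 were, when 1328 and 1091 of the 4003 genes were. Group ranges did not overlap for 32 of the 52, 61.5%, against 58.5% of all genes.

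In 39 of the 52 genes every mouse moved up, and in 3 every mouse moved down. Among all 16079 genes this held for 5625 and 6011. The size of the changes depends on the scaling, since log2 values lay lower by 0.32 with unscaled library totals, by 0.15 with upper-quartile factors and by 0.29 on log2(TPM + 1), as medians over all genes. With unscaled library totals 22 members were called higher and 7 lower, when 13.5% and 41.4% of all genes were. On log2(TPM + 1) 19 members were higher and 5 lower, when 11.8% and 34.6% of all genes were. The median log2 over the members was -0.0005 with unscaled library totals, against -0.35 over all genes. On log2(TPM + 1) it was 0.03, against -0.24 over all genes. Changes are therefore best read relative to these shifts, and 18 of the 27 calls held under each of 15 alternatives and left-out libraries. The same share over all genes called higher is not given here. The 18 of 27 therefore cannot be read as particular to the initiation factors.

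**Figure D1:**
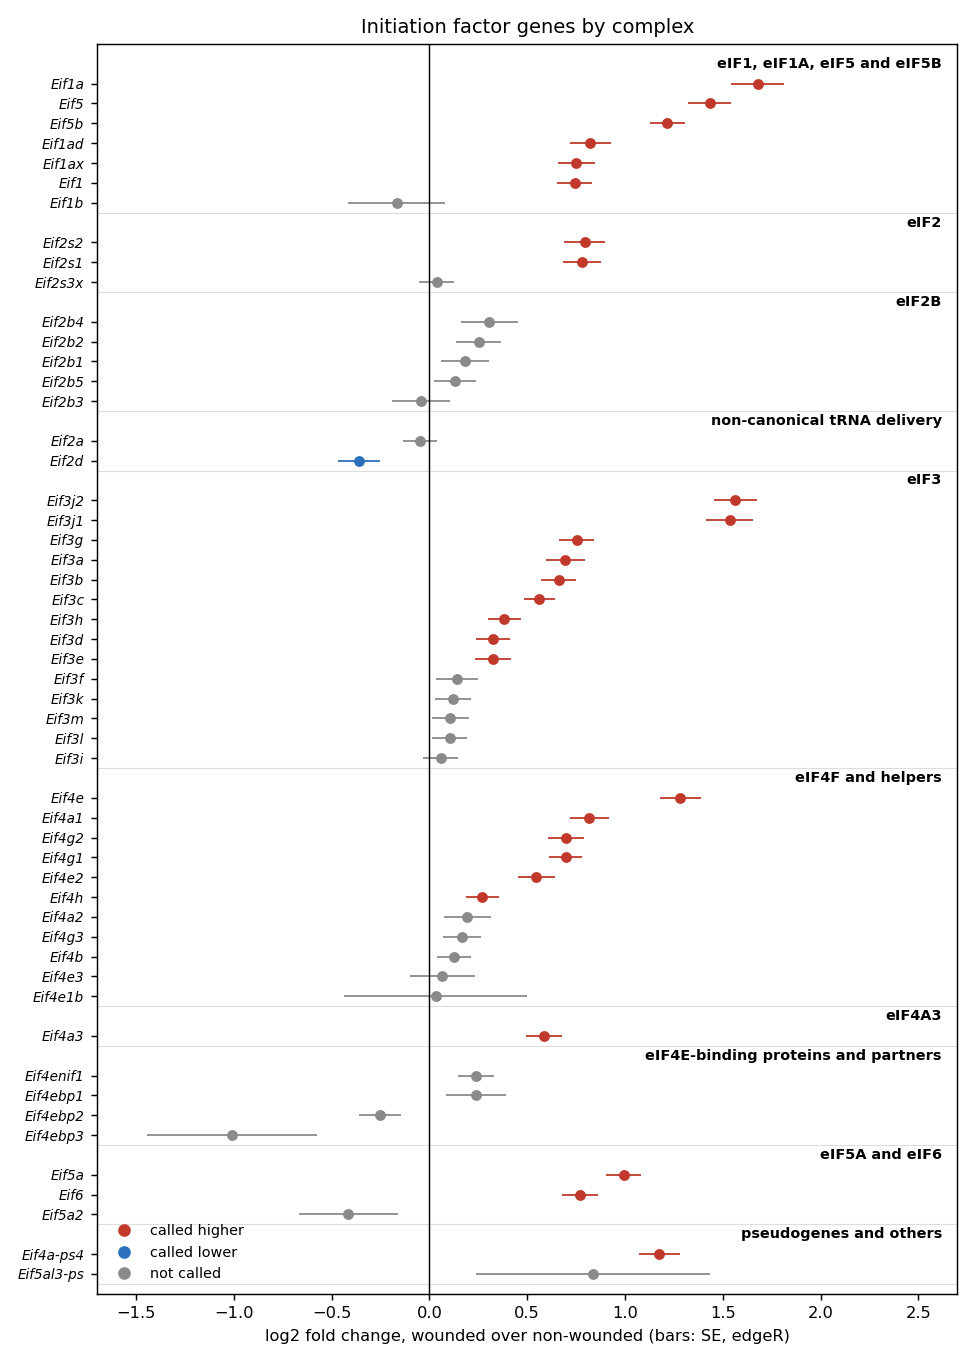
Log2 fold change of each tested initiation factor gene (x axis, wounded over non-wounded, bars are SE from edgeR) grouped by complex, with genes called higher in red, lower in blue and not called in grey. The 7 genes at log2 1 or above are Eif1a, Eif3j2, Eif3j1, Eif5, Eif4e, Eif5b and the pseudogene Eif4a-ps4, while the 5 eIF2B genes lie between -0.04 and 0.31.

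Of 7 genes for factors of scanning, start codon recognition and subunit joining 6 rose, with a median log2 of 0.82. Among all genes 24.0% were called higher and the median was -0.03. Over the 4003 genes averaging 50 CPM or more these values were 49.5% and 0.27. Of the 7, only Eif1b, which is far less abundant than the others, did not pass. Eif1a, on mouse chromosome 18, encodes a form of eIF1A and was measured at 70.2, 101 and 84.1 CPM in the non-wounded and 243, 281 and 294 CPM in the wounded libraries of mice 1, 2 and 3. Every wounded library lay above every non-wounded one, and at 3.20-fold this was the largest change among the members (log2 1.68, SE 0.14, adjusted p = 8.55e-06 by edgeR). Its relative Eif1ax on the X chromosome (chrX:159372178-159389928 in GRCm38, the build of all coordinates here) was at 96.4, 108 and 93.5 CPM without and 154, 173 and 173 CPM with wounding. That too was a rise without overlap (log2 0.75, SE 0.09, adjusted p = 1.33e-04 by edgeR), but on log2(TPM + 1) its value was 0.03 and was not called.

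Eif5 (chr12:111538016-111546752, plus strand), the gene of the GTPase-activating protein of eIF2, stood at 264, 299 and 321 CPM in the non-wounded and 735, 772 and 878 CPM in the wounded libraries of mice 1, 2 and 3. The wounded libraries were all far above the others, 2.7-fold in mean level (log2 1.43, SE 0.11, adjusted p = 5.80e-06 by edgeR), with within-mouse log2 ratios of 1.48, 1.37 and 1.45. Eif5b (chr1:37998010-38055579, plus strand), the gene of the subunit-joining GTPase, was at 111, 112 and 114 CPM without and 239, 261 and 282 CPM with wounding. The non-wounded values lay close together and the groups were separate, 2.32-fold in mean level (log2 1.22, SE 0.09, adjusted p = 5.10e-06 by edgeR). Eif5b overlaps Rev1 on the opposite strand, which had a mean of 874.5 counts, and strand use is not given in the sources used here. Eif5 and Eif5b were picked for these values after their fold changes were seen.

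Eif1 (chr11:100319885-100322096), whose product guards against wrong start codons, was at 496, 458 and 437 CPM without and 759, 799 and 771 CPM with wounding. The groups did not overlap (log2 0.74, SE 0.09, adjusted p = 1.02e-04 by edgeR). With 1599 ± 116 TPM in non-wounded epidermis it was the most abundant initiation factor transcript. Its minor paralog Eif1b was at 9.36, 6.06 and 5.80 CPM without and 7.5, 6.56 and 4.8 CPM with wounding, with overlapping groups (log2 -0.17, SE 0.25, adjusted p = 0.606 by edgeR). Eif1ad, the gene of a protein with an eIF1A-like domain, rose (log2 0.82, SE 0.10, adjusted p = 1.21e-04 by edgeR), but it overlaps Banf1 on the other strand, which had a mean of 1078 counts.

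Ratios within a library do not depend on library scaling. The TPM ratio of Eif5 to Eif1 was 0.0658, 0.0860 and 0.0928 in the non-wounded and 0.129, 0.122 and 0.146 in the wounded libraries. That of Eif5 to Eif2s1, the gene of the alpha subunit of eIF2, was 3.98, 4.18 and 5.05 in the non-wounded and 7.35, 7.21 and 7.45 in the wounded libraries. Both ratios were higher in each wounded library than in any non-wounded one. They were chosen after their values were seen and carry no test.

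**Figure D2:**
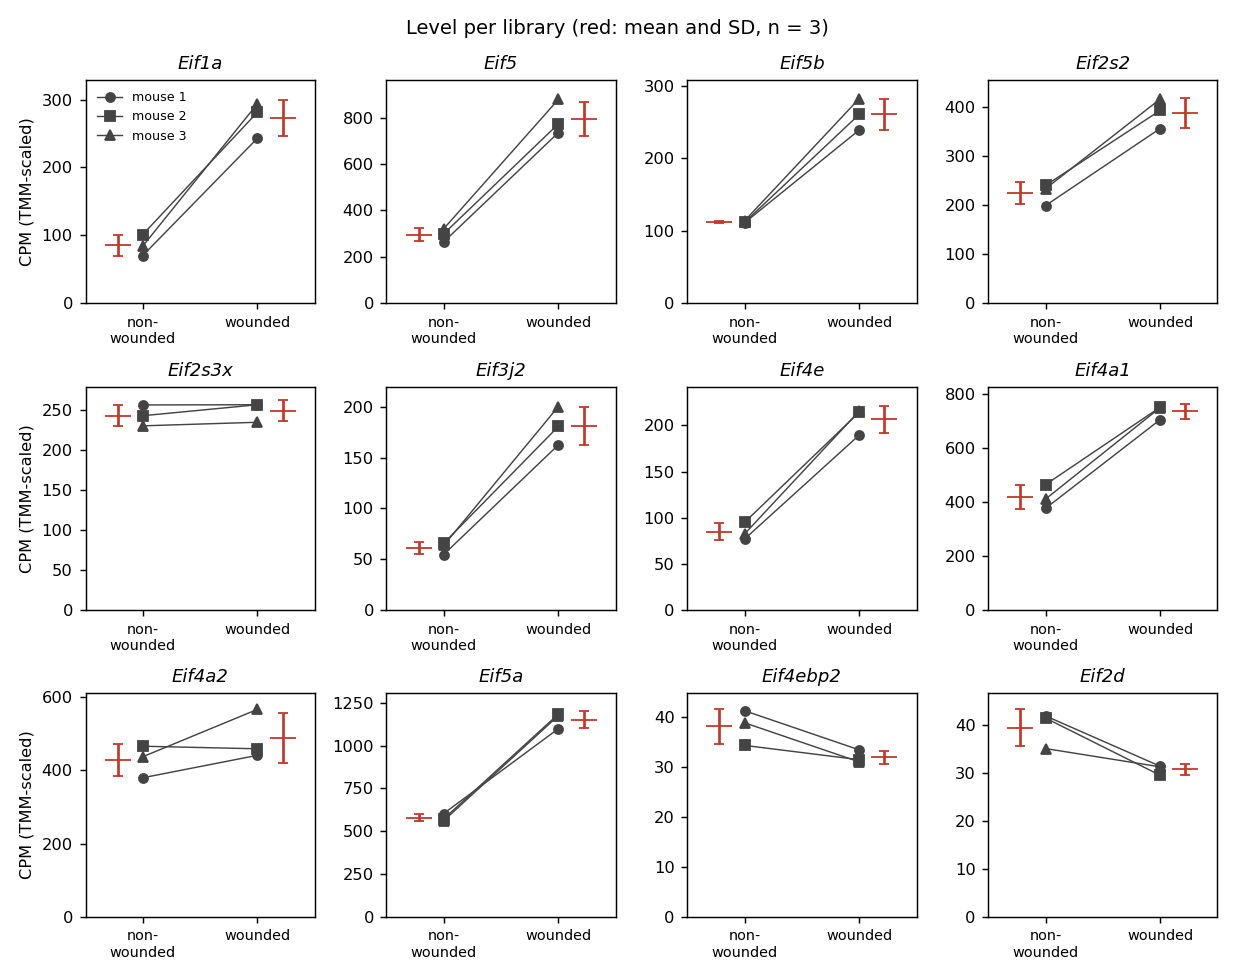
TMM-scaled CPM (y axis, from 0) of 12 initiation factor genes in the non-wounded and wounded library of each mouse (symbols joined by a line), with the mean and SD of 3 libraries in red. For Eif1a, Eif5, Eif5b, Eif2s2, Eif3j2, Eif4e, Eif4a1 and Eif5a the groups are separate and higher with wounding, for Eif2s3x and Eif4a2 they overlap, and for Eif4ebp2 and Eif2d they are separate and lower.

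Within eIF2, the transcripts of the alpha and beta subunits rose and that of the gamma subunit did not pass. Eif2s2, for the beta subunit, was at 199, 240 and 233 CPM in the non-wounded and 356, 393 and 416 CPM in the wounded libraries of mice 1, 2 and 3. Eif2s1, for the alpha subunit that stress kinases phosphorylate, was at 69.5, 77.9 and 70.5 CPM without and 115, 124 and 136 CPM with wounding. Both rose without overlap (log2 0.79, SE 0.10, adjusted p = 1.65e-04 by edgeR, and log2 0.78, SE 0.10, adjusted p = 1.2e-04 by edgeR). Eif2s3x, for the tRNA-binding gamma subunit, was at 257, 243 and 231 CPM without and 257, 257 and 235 CPM with wounding. Its values with and without wounding overlapped (log2 0.04, SE 0.09, adjusted p = 0.759 by edgeR), and with unscaled library totals it fell by 0.29 on the log2 scale (adjusted p = 0.0167 by edgeR). The TPM ratio of Eif2s2 to Eif2s3x was 1.24, 1.57 and 1.56 in the non-wounded and 2.03, 2.22 and 2.75 in the wounded libraries, a pair chosen after its values were seen. The Y-linked copy Eif2s3y had between 0 and 6 counts per library and was not tested.

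None of the 5 eIF2B genes was called by edgeR, by DESeq2 or at an unadjusted p under 0.05. Their log2 fold changes ran from -0.04 to 0.31. Among all 16079 genes tested edgeR called 48.4%. Eif2b5, for the catalytic subunit, was at 47.3, 41.2 and 38.7 CPM without and 48.9, 46.0 and 44.6 CPM with wounding. These overlapped (log2 0.13, SE 0.11, adjusted p = 0.336 by edgeR). Eif2b2 came nearest to the threshold (log2 0.25, SE 0.11, adjusted p = 0.0911 by edgeR) and was called as higher once the wounded library of mouse 3 was left out (adjusted p = 0.0497). Eif2b4 was called as higher once the non-wounded library of mouse 1 was left out (adjusted p = 0.0155). Eif2b3 was called as lower on log2(TPM + 1). The TPM ratio of Eif2b5 to Eif2s1 was 1.18, 0.857 and 0.969 in the non-wounded and 0.718, 0.694 and 0.567 in the wounded libraries. The exchange factor transcript was thus lower in each wounded library relative to that of the alpha subunit of eIF2. This ratio was chosen after its values were seen, and none was formed with the gamma subunit. In mean TPM, Eif2b5 went from 29.4 to 26.0 and the gamma subunit gene Eif2s3x from 92.3 to 79.4 with wounding.

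Eif2d and Eif2a encode factors that can deliver tRNA without eIF2. Eif2d was at 41.8, 41.4 and 35.0 CPM without and 31.3, 29.5 and 31.2 CPM with wounding, a separation without overlap. It was the sole member called lower (log2 -0.36, SE 0.11, adjusted p = 0.0183 by edgeR), in 3 of 3 mice. The call was lost when the non-wounded library of mouse 1, that of mouse 2 or the wounded library of mouse 2 was left out (adjusted p from 0.000454 to 0.0671 over all alternatives), and Eif2d overlaps Rassf5 on the other strand, with a mean of 1512 counts. Eif2a did not pass (log2 -0.05, SE 0.09, adjusted p = 0.674 by edgeR), yet was lower by test on TPM and with unscaled library totals, and it overlaps Serp1 on the other strand, with a mean of 3590.0 counts.

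Of 14 eIF3 subunit genes 9 rose, none was called lower by edgeR, by DESeq2 or at an unadjusted p under 0.05, and 5 did not pass. The 9 are 64.3%, and the median log2 over the 14 was 0.35. Over the 4003 genes averaging 50 CPM or more these values were 49.5% and 0.27. With unscaled library totals 6 of the 14 were higher and 1 lower, and on log2(TPM + 1) 5 were higher and 1 lower. Of the 4003 genes 1059 were higher and 1328 lower with unscaled library totals, and 960 and 1091 on log2(TPM + 1). The largest changes were those of the j subunit, a loosely bound part of the complex, which mouse encodes in the closely related genes Eif3j1 and Eif3j2. Eif3j2 was at 54.6, 65.6 and 63.5 CPM in the non-wounded and 162, 181 and 200.2 CPM in the wounded libraries of mice 1, 2 and 3. Eif3j1 was at 23.4, 19.7 and 25.4 CPM without and 61.3, 65.6 and 71.6 CPM with wounding. Both were separate between the groups (log2 1.56, SE 0.11, adjusted p = 3.77e-06 by edgeR, and log2 1.53, SE 0.12, adjusted p = 7.26e-06 by edgeR). Eif3j1 also overlaps Spg11 on the other strand, with a mean of 840.0 counts. Reads of near-identical copies cannot be placed with certainty, so the pair was also summed. Together they went from 78.0, 85.3 and 88.9 to 224, 246 and 272 CPM (log2 1.56, SE 0.10, adjusted p = 2.60e-06 by edgeR).

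Subunits a, b, c, g and i have counterparts in budding yeast, and 4 of these 5 genes rose, with a median log2 of 0.66. Eif3a, for the largest scaffold subunit, went from 444 ± 29.5 to 719 ± 56.3 CPM (SD, n = 3, log2 0.70), Eif3b from 188 ± 8.54 to 297 ± 21.9 CPM (log2 0.66), Eif3c from 221 ± 2.34 to 325 ± 4.82 CPM (log2 0.56) and Eif3g from 100.4 ± 4.56 to 169 ± 10.7 CPM (log2 0.75). None of these 4 overlapped between groups, as held for 2891 of the 4003 genes averaging 50 CPM or more. On TPM, Eif3b was not called under any of the 3 settings (log2 down to 0.21, adjusted p up to 0.306), and Eif3a was not called on unfiltered TPM (adjusted p = 0.0537 by limma). Eif3i, of the same yeast-like set, was at 114, 112 and 104 CPM without and 119.6, 119 and 106 CPM with wounding. It overlapped (log2 0.06, SE 0.09, adjusted p = 0.625 by edgeR), and with unscaled library totals it was called as lower (log2 -0.27).

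Of the 7 subunits that budding yeast lacks 3 rose, 42.9%, with a median log2 of 0.14 over the 7. Both values lay below the 49.5% and 0.27 over the 4003 genes averaging 50 CPM or more. The 3 that rose were Eif3h (log2 0.38), Eif3d (log2 0.32) and Eif3e (log2 0.32). None of the 3 was called with unscaled library totals or on TPM. On log2(TPM + 1) Eif3d was at -0.020 and Eif3e at -0.018, and neither was called with upper-quartile factors. Eif3e also lost its call when mouse 2 lacked its wounded library or mouse 3 its non-wounded one. Eif3f, Eif3k, Eif3l and Eif3m lay between log2 0.10 and 0.14 and did not pass. The summed TPM of a, b, c, g and i relative to that of the 7 others was 0.463, 0.456 and 0.502 in the non-wounded and 0.562, 0.588 and 0.619 in the wounded libraries. It was higher in each wounded library, and the sets were formed after the values were seen.

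**Figure D3:**
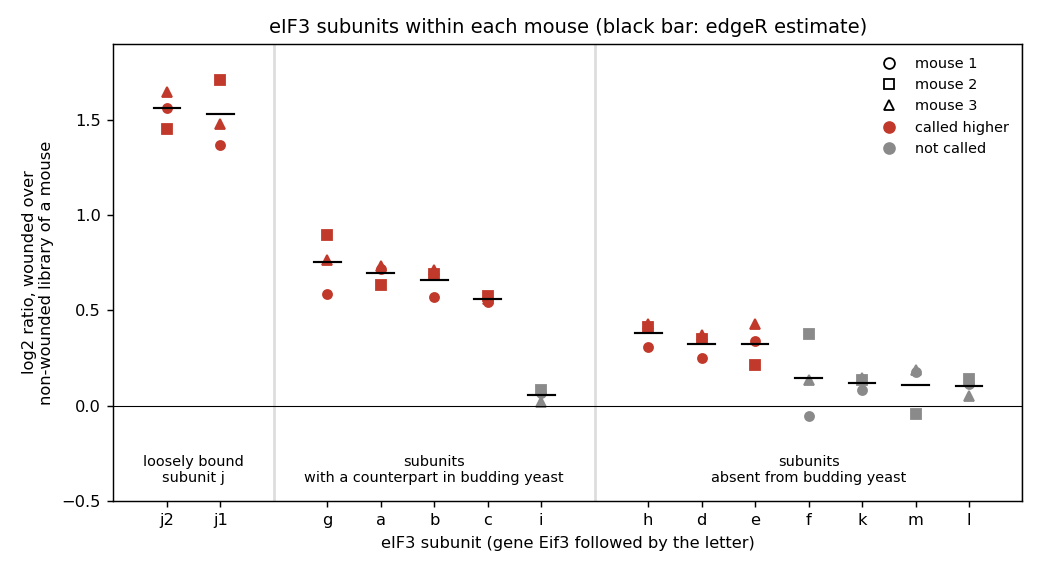
Log2 ratio of the wounded to the non-wounded library of each mouse (y axis, symbols by mouse) for the 14 eIF3 subunit genes, with the edgeR estimate as a black bar, red where called higher and grey where not called. The j genes lie at 1.53 and 1.56, subunits g, a, b and c between 0.56 and 0.75, and subunits f, k, m, l and i at 0.14 or below.

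Of the 11 genes of eIF4F and its helpers 6 rose, 54.5%, with a median log2 of 0.27. None was called lower by edgeR, by DESeq2 or at an unadjusted p under 0.05. Most of the 11 are abundant. Over the 4003 genes averaging 50 CPM or more, edgeR called 49.5% higher and 13.7% lower, and the median log2 was 0.27. The share called higher and the median of the 11 thus lay near those of abundant genes. Eif4e (chr3:138526179-138559696, plus strand), the gene of the cap-binding subunit, was at 76.9, 95.0 and 82.5 CPM in the non-wounded and 189.5, 214 and 216 CPM in the wounded libraries of mice 1, 2 and 3. The groups were far apart (2.43-fold, log2 1.28, SE 0.10, adjusted p = 8.92e-06 by edgeR). Eif4e2, for a cap-binding relative that represses translation together with GIGYF2, was at 49.7, 46.8 and 44.5 CPM without and 67.1, 66.7 and 72.2 CPM with wounding. It rose too (log2 0.55, SE 0.09, adjusted p = 9.20e-04 by edgeR), and was not called with unscaled library totals or on TPM. Eif4e3 did not pass (log2 0.07, SE 0.17), and Eif4e1b, known from oocytes, had a mean of 0.880 CPM in non-wounded epidermis.

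The scaffold gene Eif4g1 (chr16:20668313-20692884) was at 399, 403 and 414 CPM without and 642, 636 and 694 CPM with wounding. Eif4g2, whose product lacks the eIF4E-binding part of the scaffold, was at 1033, 1124 and 1031 CPM without and 1707, 1776 and 1691 CPM with wounding. Both rose without overlap (log2 0.70, SE 0.09, adjusted p = 1.16e-04 by edgeR, and log2 0.70, SE 0.09, adjusted p = 1.58e-04 by edgeR). Eif4g3 was at 53.4, 50.1 and 54.7 CPM without and 60.3, 54.7 and 62.4 CPM with wounding. It overlapped and did not pass (log2 0.16, SE 0.10, adjusted p = 0.185 by edgeR).

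Of the helicase genes, Eif4a1 rose and Eif4a2 did not pass. Eif4a1 (chr11:69666936-69672423, minus strand) was at 376, 464 and 410.4 CPM in the non-wounded and 704, 750.5 and 749 CPM in the wounded libraries of mice 1, 2 and 3. Eif4a2 (chr16:23107444-23114136, plus strand) was at 379.6, 466 and 437 CPM without and 441, 459 and 566 CPM with wounding. Eif4a1 was separate between groups (log2 0.82, SE 0.10, adjusted p = 1.14e-04 by edgeR) and Eif4a2 was not (log2 0.19, SE 0.12, adjusted p = 0.210 by edgeR). The processed pseudogene Eif4a-ps4 held between 4318 and 10297 counts per library and rose by log2 1.18 (SE 0.10). Summed with Eif4a1, the value was log2 0.94 (SE 0.10, adjusted p = 5.61e-05 by edgeR). Which of the copies the reads came from cannot be told apart here.

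Eif4b and Eif4h encode cofactors of the helicase. Eif4b stood at 466, 417 and 429 CPM without and 472, 494 and 467 CPM with wounding. It did not pass (log2 0.13, SE 0.09, adjusted p = 0.260 by edgeR), although its groups did not overlap. Eif4h was called higher at log2 0.27 (SE 0.08, adjusted p = 0.0221 by edgeR), but not with unscaled library totals or upper-quartile factors, on TPM, or with no filter on low counts. Nor was it called when the non-wounded library of mouse 2, or the wounded library of mouse 2 or of mouse 3, was left out (adjusted p up to 0.938 over all alternatives). Eif4a3, a related helicase gene whose product sits in the exon junction complex, rose from 62.9 ± 4.95 to 94.5 ± 0.951 CPM (log2 0.59, SE 0.09, adjusted p = 5.35e-04 by edgeR), and was not called on TPM.

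None of the 4 genes of the eIF4E-binding proteins and partners was called by edgeR, against 48.4% of all 16079 genes tested. At an unadjusted p under 0.05, 1 of the 4 was higher and 2 were lower, and DESeq2 called 1 higher. Eif4ebp1 was at 13.2, 13.8 and 13.4 CPM without and 13.2, 15.5 and 18.9 CPM with wounding. Eif4ebp2 was at 41.2, 34.2 and 38.8 CPM without and 33.4, 31.4 and 30.9 CPM with wounding. Eif4ebp1 overlapped (log2 0.24, SE 0.15, adjusted p = 0.224 by edgeR), whereas Eif4ebp2 lay lower in each wounded library (log2 -0.25, SE 0.11, adjusted p = 0.0725 by edgeR). With the mouse as a block Eif4ebp2 was called as lower (log2 -0.25, adjusted p = 0.0493 by edgeR). It was also called when the non-wounded library of mouse 2 was left out, with unscaled library totals, with upper-quartile factors and on TPM.

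Eif4ebp3 had few counts, at 1.21, 4.08 and 3.74 CPM without and 1.31, 1.35 and 1.83 CPM with wounding, and overlaps another annotated protein-coding gene on the same strand. Its groups overlapped (log2 -1.01, SE 0.44, adjusted p = 0.0796 by edgeR), and it was called as lower at log2 -1.39 when the non-wounded library of mouse 1 was left out, and also with unscaled library totals, with upper-quartile factors and with no filter. Eif4enif1, for a carrier of eIF4E, was at 51.3, 52.0 and 55.3 CPM without and 59.3, 65.3 and 62.5 CPM with wounding (log2 0.24, SE 0.09, adjusted p = 0.0538 by edgeR). With the mouse as a block it was called as higher (adjusted p = 0.0443 by edgeR), as it was with DESeq2. It overlaps Drg1 on the other strand.

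The TPM of Eif4e relative to the summed TPM of the 3 binding protein genes was 2.64, 3.29 and 2.68 in the non-wounded and 7.41, 8.83 and 7.61 in the wounded libraries. The ratio was higher in every wounded library, by 1.47 on the log2 scale, and was formed after the values were seen. These are transcripts, and phosphorylation of the binding proteins was not measured.

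Eif5a (chr11:69916714-69921958, minus strand), the gene of a hypusine-bearing factor that helps ribosomes through difficult stretches, was at 604, 572 and 562 CPM in the non-wounded and 1099, 1185 and 1176 CPM in the wounded libraries of mice 1, 2 and 3. Eif6, for a factor that keeps the large subunit from joining too early, was at 191, 217 and 225 CPM without and 348, 359 and 372 CPM with wounding. Both rose without overlap (log2 0.99, SE 0.09, adjusted p = 1.64e-05 by edgeR, and log2 0.77, SE 0.09, adjusted p = 9.67e-05 by edgeR). Eif5a2, a minor paralog, was at 5.46, 6.89 and 3.78 CPM without and 4.50, 4.0 and 3.61 CPM with wounding. It overlapped (log2 -0.41, SE 0.25, adjusted p = 0.205 by edgeR), and passed as lower when library totals were left unscaled.

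A total of 9 pairs of related genes were compared as TPM ratios within each library. In 7 of the 9 the 3 wounded ratios lay beyond all 3 non-wounded ones, which gives the smallest p this design allows, 0.1 in a two-sided exact permutation test of 3 against 3 libraries, or 0.129 adjusted over the 9 pairs. None can therefore pass. The ratio of Eif4a1 to Eif4a2 was 1.83, 1.75 and 1.64 in the non-wounded and 2.75, 3.19 and 2.65 in the wounded libraries, a log2 difference of 0.71. That of Eif1a to Eif1ax was 1.03, 1.55 and 1.05 in the non-wounded and 2.7, 2.58 and 3.78 in the wounded libraries, a log2 difference of 1.33. From CPM the log2 differences were smaller, 0.63 for Eif4a1 to Eif4a2 and 0.94 for Eif1a to Eif1ax. In these pairs the ratio was higher with wounding in 3 of 3 mice. Values of Eif4a-ps4 were not added to those of Eif4a1 here.

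The log2 ratio was higher by 1.41 for Eif5a to Eif5a2, by 0.97 for Eif1 to Eif1b, by 0.70 for Eif4g1 to Eif4g3 and by 0.69 for Eif4e to Eif4e2. It was higher by 0.36 for Eif4ebp1 to Eif4ebp2. From CPM the groups of that pair overlapped (log2 difference 0.48, exact permutation p = 0.2). Eif4g1 to Eif4g2 was 0.110, 0.0916 and 0.120 in the non-wounded and 0.111, 0.0953 and 0.0993 in the wounded libraries. That pair overlapped (log2 difference -0.07, exact permutation p = 0.8), as did Eif3j1 to Eif3j2 (log2 difference 0.30, exact permutation p = 0.300). A p above the threshold does not show that a ratio stayed equal.

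**Figure D4:**
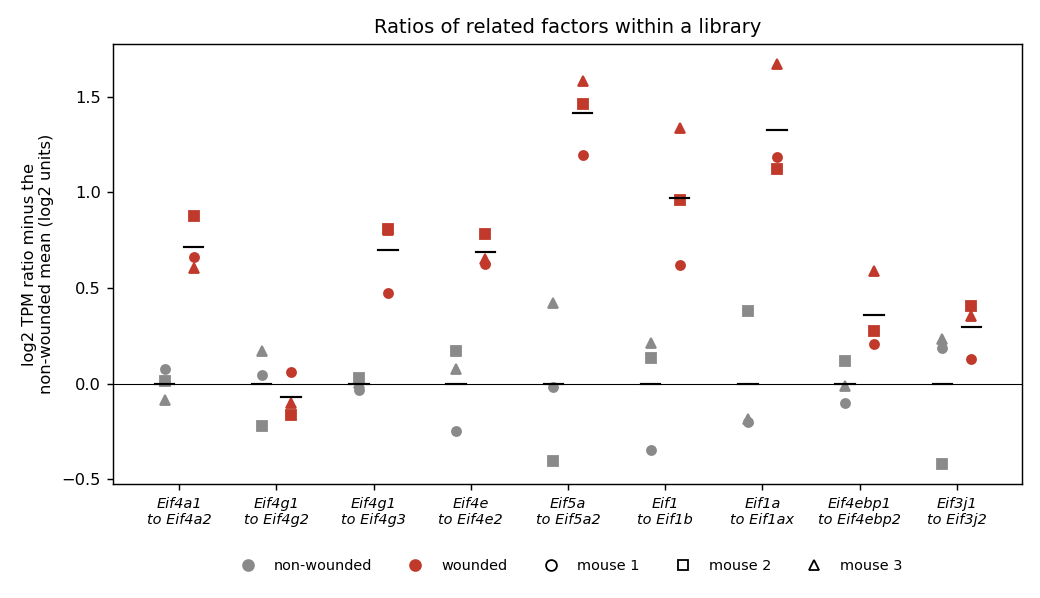
Log2 TPM ratio of related initiation factor genes within each library, relative to the non-wounded mean (y axis, log2 units), grey for non-wounded and red for wounded, symbols by mouse, black bars for the mean of 3 libraries. The groups are separate in 7 pairs and overlap for Eif4g1 to Eif4g2 and Eif3j1 to Eif3j2.

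Between genes, levels were compared per transcript length in TPM. In non-wounded epidermis the tested members ran from Eif1, Eif4g2 (1079 ± 100.03 TPM), Eif5a (841 ± 32.9 TPM), Eif4a1 (731 ± 63.4 TPM) and Eif6 (639 ± 39.0 TPM) down to Eif5a2 (1.44 ± 0.398 TPM) and Eif4e1b (0.740 ± 0.0928 TPM). Among neighbours of the 5 leading genes, Eif4a1 and Eif6 overlapped over the 3 libraries and the other neighbours did not. Eif4a-ps4, whose reads cannot be told apart from those of Eif4a1, held 236 ± 20.3 TPM. The place of Eif4a1 in this order is therefore uncertain. Within eIF3, levels of the subunits other than j ran from 314 ± 21.8 TPM for Eif3k to 75.9 ± 4.8 TPM for Eif3d, with Eif3j2 and Eif3j1 at 36.5 ± 3.02 TPM and 6.88 ± 1.51 TPM. Eif2b3 was the least abundant eIF2B transcript at 12.7 ± 1.64 TPM and Eif2b4 the most abundant at 77.6 ± 10.4 TPM. The binding protein transcripts were at 31.2 ± 3.42 TPM for Eif4ebp2, 22.8 ± 0.840 TPM for Eif4ebp1 and 7.16 ± 3.71 TPM for Eif4ebp3, well under Eif4e at 175 ± 17.3 TPM.

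The 7 members that were not tested had between 0 and 15 counts each in all libraries together. Besides Eif2s3y they were the pseudogenes Eif1-ps1, Eif1-ps3, Eif3s6-ps1, Eif3s6-ps2 and Eif3s6-ps4 and the non-coding gene Eif2c5. Eif3s6-ps2 had 0 counts in all 6 libraries. The pseudogene Eif5al3-ps was tested and did not pass (log2 0.84, SE 0.60, adjusted p = 0.275 by edgeR).

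Promoter sequence was looked at because many members moved together. RefSeq windows of GRCm38.p6, from 250 bases before to 50 after each annotated start, were found for 40 of the 59 members. The E-box CACGTG, a palindrome bound by MYC and its relatives, was present in 10 of the 40 (25%), against 8.09% of 27025 genes. A gene was counted when any of its windows held the motif. The 27025 genes were not limited to those tested here, and the share among abundant genes was not taken. Among members with a window the E-box was in 6 of 20 called higher, 30.0% (Eif3a, Eif4a1, Eif4e, Eif4g1, Eif4h and Eif5a). It was in 4 of 18 tested but not called higher, 22.2% (Eif1b, Eif3f, Eif3k and Eif5a2). The ATF4-type motif TGATGNAA, searched on both strands, was in 1 of the 40, Eif2s3x, against 4.51% of all genes. Parts of 5 windows, trimmed to bases nearer the start, are shown 5′ to 3′ with each E-box in capitals. They are those of Eif5 (a large rise, no match in its whole window, of which a part is printed), Eif4e and Eif4g1 (rises, with matches) and Eif3f and Eif1b (not called, with matches).
Eif5, chr12:111538001-111538120, plus strand: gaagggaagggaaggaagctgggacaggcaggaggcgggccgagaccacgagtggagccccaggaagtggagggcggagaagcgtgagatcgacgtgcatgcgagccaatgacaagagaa
Eif4e, chr3:138527030-138527287, plus strand: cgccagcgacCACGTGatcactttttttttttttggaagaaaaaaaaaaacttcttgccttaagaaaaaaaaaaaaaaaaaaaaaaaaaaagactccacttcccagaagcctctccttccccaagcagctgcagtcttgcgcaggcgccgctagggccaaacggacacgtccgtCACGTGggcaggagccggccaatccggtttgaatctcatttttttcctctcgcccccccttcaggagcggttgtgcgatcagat
Eif4g1, chr16:20672647-20672751, plus strand: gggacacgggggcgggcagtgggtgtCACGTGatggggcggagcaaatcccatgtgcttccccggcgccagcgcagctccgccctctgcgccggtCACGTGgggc
Eif3f, chr7:108934315-108934434, plus strand: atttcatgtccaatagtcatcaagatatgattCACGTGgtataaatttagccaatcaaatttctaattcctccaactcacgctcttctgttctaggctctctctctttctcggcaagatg
Eif1b, chr9:120492546-120492625, plus strand: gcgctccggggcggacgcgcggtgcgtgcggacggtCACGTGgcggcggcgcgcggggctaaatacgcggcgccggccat
The Eif4e sequence belongs to the second of its 2 annotated starts. Its E-boxes begin 228 and 64 bases before that start, that of Eif3f 68 and that of Eif1b 24 bases before theirs. Eif4g1 has an E-box 54 bases before its start and another just after it. A match is a description of letters and says nothing of binding.

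Regulators that act on eIF2 were followed in a list of 12 genes, of which 5 rose and 1 fell. Among all genes 24.0% were called higher and 24.4% lower, and among the 4003 averaging 50 CPM or more 49.5% and 13.7%. With unscaled library totals 3 of the 12 were higher and 4 lower, when 13.5% and 41.4% of all genes were. The genes Ppp1r15a and Ppp1r15b, whose products bring a phosphatase to eIF2 alpha, had the smallest p. Ppp1r15a was at 168, 139.9 and 189 CPM without and 341, 356 and 376 CPM with wounding. Ppp1r15b was at 71.7, 75.5 and 73.5 CPM without and 139.6, 145 and 155 CPM with wounding. Both rose without overlap (log2 1.11, SE 0.11, adjusted p = 3.76e-05 by edgeR, and log2 0.99, SE 0.09, adjusted p = 1.29e-05 by edgeR). Among the eIF2 kinase genes, Eif2ak3, the kinase of the endoplasmic reticulum, rose from 11.7 ± 0.488 to 19.8 ± 0.876 CPM (log2 0.76, SE 0.12, adjusted p = 6.27e-04 by edgeR), but was not called on unfiltered TPM. Eif2ak1, Eif2ak2 and Eif2ak4 lay between log2 -0.19 and -0.05 and did not pass. With unscaled library totals Eif2ak1 and Eif2ak2 were called lower, and Eif2ak1 also with upper-quartile factors and on both filtered TPM scales. Ppp1ca and Ppp1cb, phosphatase catalytic genes, were called at adjusted p = 0.0442 and 0.0454 by edgeR, but not on TPM or with unscaled library totals. The call of Ppp1ca also ended when mouse 1 lacked its wounded library, mouse 2 either library or mouse 3 its non-wounded library, and that of Ppp1cb when any library other than the non-wounded library of mouse 2 was left out. Impact, an inhibitor of the kinase encoded by Eif2ak4, was called lower (log2 -0.39), but the call was lost when the wounded library of mouse 1, either library of mouse 2 or the non-wounded library of mouse 3 was left out.

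Of 16 genes of mTORC1 and the MNK kinases 4 rose and 5 fell, shares near the 24.0% higher and 24.4% lower of all genes. Unscaled library totals gave 2 higher and 12 lower, when 13.5% and 41.4% of all genes were. Larp1, for a binder of ribosomal protein mRNAs, was at 147, 142 and 146 CPM without and 299, 329 and 369 CPM with wounding. Ddit4, for an inhibitor of mTORC1, was at 113, 81.4 and 75.4 CPM without and 37.9, 30.7 and 40.2 CPM with wounding. Larp1 rose (log2 1.2, SE 0.10, adjusted p = 8.64e-06 by edgeR) and Ddit4 fell (log2 -1.31, SE 0.16, adjusted p = 1.15e-04 by edgeR), each without overlap and in 3 of 3 mice. The S6 kinase gene Rps6kb1 rose by log2 1.00 (SE 0.13). The MNK genes Mknk1 and Mknk2, for kinases that phosphorylate eIF4E, fell by 0.79 and 0.75 on the log2 scale, and Pdcd4, for an inhibitor of the eIF4A helicase, fell by 0.59. Mtor and Rptor, for the kinase and its adaptor, were at log2 0.02 and -0.05 and did not pass. Both were called lower with unscaled library totals, whereas Mtor was called higher on both filtered TPM scales.

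Of 16 poly(A)-binding and scanning partner genes 6 rose and 3 fell. These are 37.5% and 18.75%, against 24.0% higher and 24.4% lower of all genes. Of the 4003 genes averaging 50 CPM or more 49.5% were higher and 13.7% lower. Unscaled library totals gave 4 higher and 6 lower, when 13.5% and 41.4% of all genes were. The helicase gene Ddx3x, whose product aids structured leaders, was at 388, 537 and 451 CPM without and 1207, 1323 and 1195 CPM with wounding. It rose in 3 of 3 mice (log2 1.44, SE 0.12, adjusted p = 1.29e-05 by edgeR). Pabpc1, the gene of the main poly(A)-binding protein, was at 725, 635 and 659 CPM without and 1178, 1254 and 1377 CPM with wounding. It rose too (log2 0.92, SE 0.10, adjusted p = 5.54e-05 by edgeR). Mcts1, whose product acts in tRNA recycling, fell (log2 -0.37, SE 0.10, adjusted p = 0.0131 by edgeR), as did Gigyf2, the gene of the partner of eIF4E2 (log2 -0.33, SE 0.09, adjusted p = 0.0110 by edgeR). Cyfip1, for another eIF4E partner, was called lower at log2 -0.33, but the call was lost when mouse 1's non-wounded library or the wounded library of mouse 2 or of mouse 3 was left out.

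Of 13 tested elongation and termination factor genes 10 rose and 1 fell, with a median log2 of 0.45. These are 76.9% and 7.69%, against 24.0% higher and 24.4% lower of all genes. Most of the 13 are abundant, and of the 4003 genes averaging 50 CPM or more 49.5% were higher and 13.7% lower. Unscaled library totals gave 4 higher and 1 lower, when 13.5% and 41.4% of all genes were. Of the 4003 abundant genes 1059 were then higher and 1328 lower. Eef2k, for the kinase that inhibits the elongation factor eEF2, was at 145, 119 and 134 CPM without and 57.2, 48.3 and 48.2 CPM with wounding. It fell in 3 of 3 mice without overlap (log2 -1.37, SE 0.11, adjusted p = 8.20e-06 by edgeR). Gspt1, for the release factor GTPase, was at 78.9, 87.8 and 89.5 CPM without and 161, 179 and 208 CPM with wounding and rose (log2 1.10, SE 0.11, adjusted p = 3.27e-05 by edgeR). Dhps, for the enzyme that begins hypusine synthesis on eIF5A, rose by log2 0.66 (SE 0.14), but was not called with unscaled library totals or on TPM, and Dohh, for the enzyme that completes it, did not pass (log2 0.24).

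**Figure D5:**
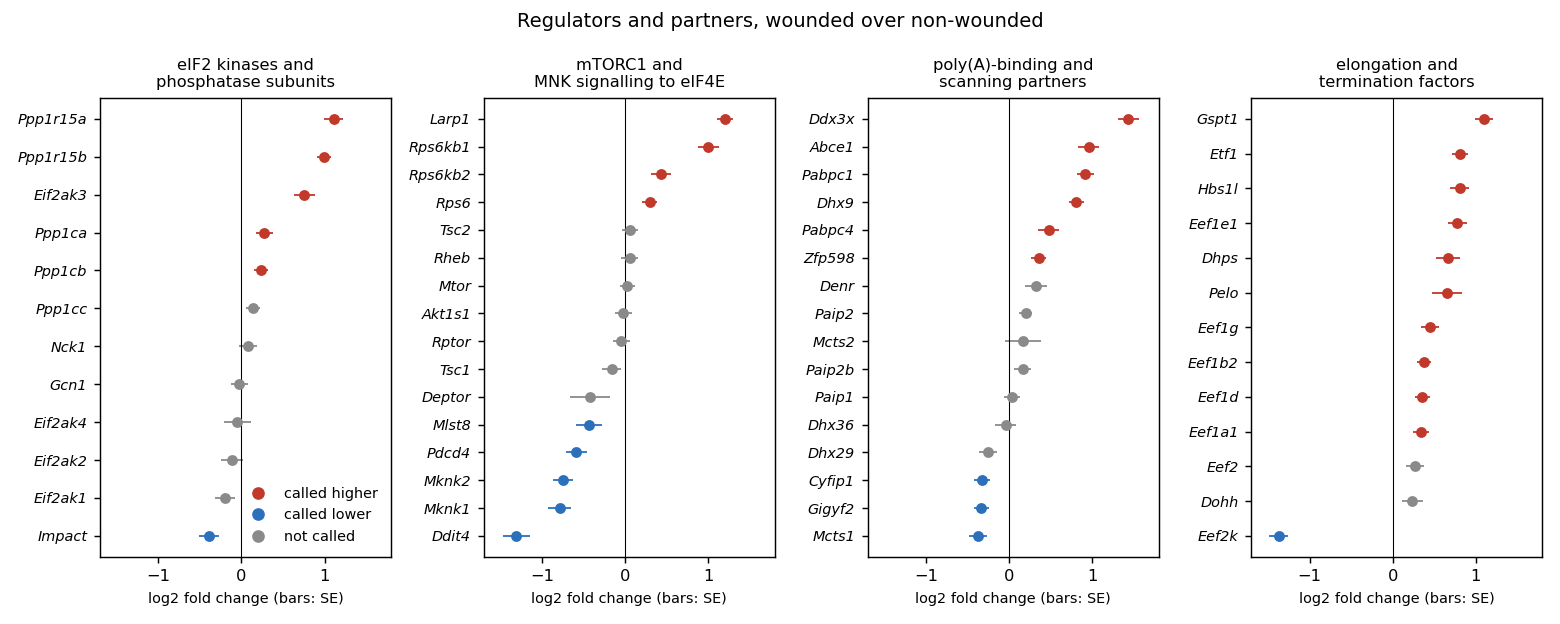
Log2 fold change (x axis, wounded over non-wounded, bars are SE from edgeR) of genes in 4 lists of regulators and partners of initiation, red for called higher, blue for called lower and grey for not called. Ddx3x, Larp1, Ppp1r15a, Gspt1 and Rps6kb1 are above log2 1, and Ddit4 and Eef2k below -1.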

How the data were processed

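RNA sequencing of whole epidermis gave 1 non-wounded and 1 wounded library from each of 3 mice. The authors deposited estimated counts and TPM per gene symbol, made with Salmon on mouse genome build mm10, per the submitters' processing notes and the deposited sheet of methods, which also name edgeR. No version, annotation release or strand setting is given in the sources used here.

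Estimated counts were rounded. Replicates of a group varied beyond sampling noise (chi-square over genes, 13.7 to 37.1 per gene). TMM scaling was applied to the 16079 genes passing filterByExpr. Groups were compared by edgeR's quasi-likelihood test (edgeR 4.0.16, R 4.3.3) with no mouse term, with Benjamini-Hochberg adjustment over all of them. SE was taken as log2 fold change, without sign, divided by the root of the F statistic. CPM use library size times TMM factor, and mouse ratios add 0.5 CPM. Alternatives were RLE, upper-quartile or no scaling factors, no filter, DESeq2 1.42.0, limma 3.58.1 on log2(TPM + 1) or log2(TPM + 0.1) with or without the filter, a replicate block, each library left out, and summed copies (added after the data were seen). The test was tried on simulated counts. It recovered 16 of 50 genes changed 1.5-fold, 34 of 50 changed 2-fold, 48 of 50 changed 4-fold and 49 of 50 changed 8-fold. Of the unchanged genes 9 were called. Far fewer genes were changed there than were called in the data, so these shares need not hold for the data. A gene that did not pass can still have changed.

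Per the labels, libraries with the same number come from the same mouse and are paired by animal. Deviations from group means correlated at 0.19, 0.085 and 0.20 within mice 1, 2 and 3.

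Members, lists and pairs were chosen with earlier results of these data known. Full values were to be given for the largest called rise and fall of each complex, among genes with a mean of at least 5 TPM and 1 direction in all 3 mice, for all members of paralog pairs, and for the 2 smallest p of each pathway list. Other values shown in full were chosen after they were seen. Coordinates are 1-based, from GENCODE M21 (GRCm38), to which all 59 symbols matched. The release the authors used may differ.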

Additional observations from a re-analysis of the deposited data

How the results depend on the processing

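Of the initiation factors, 27 were called higher and 1 lower. The number called higher was 18 to 28 over the alternatives and 25 to 28 with a library left out. The number called lower was 7 with unscaled library totals, 3 with upper-quartile factors, 2 without the filter, 2 with the replicate block (mouse), 5 on log2(TPM + 1) and on log2(TPM + 0.1), 4 on unfiltered TPM, and 0 to 1 with a library left out. The replicate block added Eif4enif1 as higher and Eif4ebp2 as lower among the members, and it changed no other member's call. It added Paip2 and Eef2 as higher in the pathway lists.

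By complex, eIF2 and eIF2B genes called lower went from 0 to 1 with unscaled library totals and on both filtered TPM scales. The eIF3 genes called higher went from 9 to 5 on both filtered TPM scales and to 4 unfiltered, and 1 was called lower there and with unscaled library totals. Of the eIF4E-binding protein and partner genes, 1 was higher with RLE factors, with the block and with DESeq2. Lower were 2 with unscaled library totals or upper-quartile factors and 1 without the filter, with the block, or on any TPM scale, and 0 to 1 with a library left out. Of the eIF5A and eIF6 genes 1 was lower with unscaled library totals.

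Signs changed for Eif3d (-0.020), Eif3e (-0.018) and Eif4h (-0.0118 to -0.0119) on all TPM scales and, with unscaled library totals, for Eif3e (-0.001104) and Eif4h (-0.054). Eif2s3x was lower at -0.29 with unscaled library totals, and Eif3i at -0.27 there and -0.29 on all TPM scales. The log2 ratio of Eif3j1 to Eif3j2 was -0.024 in CPM, and that of Eif4g1 to Eif4g2 ran from -0.18 to 0.018 with a library left out.

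With unscaled library totals the pathway lists held 3 higher and 4 lower for eIF2 regulators, 2 and 12 for mTORC1 and MNK, 6 lower among scanning partners and 4 higher among elongation factors. With a library left out the eIF2 regulators held 3 to 4 higher and 0 to 1 lower. The causes were not tested. Unscaled library totals and TPM lowered the median log2 value over all genes, as given with the first counts, and on TPM the shift differed between genes. Low counts limit Eif4ebp3, Eif5a2, Eif1b and Eif4e1b.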
